A study of Homo sapiens with 6 samples.

Results

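The nCounter panel used here holds 21 metalloproteinase and inhibitor genes among 770 genes, taken as every gene whose symbol starts with MMP and a digit, with TIMP or with ADAM. They comprise 3 inhibitors (TIMP1, TIMP2 and TIMP4), 7 secreted matrix metalloproteinases (MMP1, MMP2, MMP3, MMP9, MMP10, MMP12 and MMP13), 3 membrane-bound ones (MMP14, MMP17 and MMP24), 5 ADAMs (ADAM8, ADAM9, ADAM15, ADAM17 and ADAM28) and 3 ADAMTSs (ADAMTS1, ADAMTS8 and ADAMTS12). Transcripts were counted in 3 WT samples of HCT116, an established human colorectal carcinoma line, and in 3 samples of HCT116 p21-/-, an isogenic line without functional CDKN1A, the gene of the cell cycle inhibitor p21. No treatment was given to either line, and 100 ng of total RNA went into each assay. The deposited description gives RPMI medium for all cells, whereas the methods of the study give DMEM with added pyruvate and non-essential amino acids for HCT116 p21-/- and RPMI for WT, so medium and genotype cannot be told apart here. Which clone each p21-/- sample came from is not given in the sources used here, and clone and genotype cannot be told apart either. The samples are biological replicates per the labels, and the methods of the study say that the procedure was carried out anew for each of them, so the p-values measure the spread between such repeats of each line.

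Matrix metalloproteinases are zinc enzymes that cut collagens, laminins and other proteins of the extracellular matrix. The secreted forms are released as inactive precursors, and the membrane forms act at the cell surface. ADAMs are membrane proteins, several of which release growth factors, cytokines and adhesion molecules from the surface (shedding), while ADAMTSs are secreted relatives that cut proteoglycans and other matrix proteins. TIMPs bind the active site of many of these enzymes and block it, but not every TIMP blocks every enzyme. In carcinomas stromal cells are known as a source of many secreted MMPs, beside the tumour cells themselves.

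Values are normalized counts of molecular barcodes. A gene below background is listed at a floor, which equalled the average of the sample's 8 negative control counts with 2 SD added. It was 29.81, 34.94 and 33.78 in WT and 33.84, 25.66 and 31.41 in p21-/- samples. Normalization multiplied the barcode counts by 1.123 to 1.507 in WT and by 0.885 to 1.079 in p21-/- samples. Every WT factor was thus above every p21-/- factor. The step at which the floor was set is not given in the sources used here. A gene at the floor can therefore have had a normalized level of up to 39.2 to 44.9 in WT and 25.7 to 36.5 in p21-/- samples. The number of genes at the floor was 278 to 298 in WT and 196 to 250 in p21-/- samples, and the barcode totals over the other genes were 867421 to 1187904 and 1125126 to 1335467. CDKN1A, the targeted gene, was at 4701 ± 834 normalized counts in WT and 419 ± 37.0 in p21-/- samples (SD, n = 3 each). The epithelial markers EPCAM, CDH1 and KRT19 were above the floor in all 6 samples, with sums of 14954 to 17645 in WT and 11812 to 12357 in p21-/- samples. Their log2 fold changes on the deposited scaling differed, at -3.23 for CDH1, -0.52 for KRT19 and 0.22 for EPCAM (limma adjusted p = 0.0444), so the sum does not describe each marker. Of 9 fibroblast and smooth muscle markers, COL1A1 was the only one above the floor in WT, whereas 3 to 6 were above it in p21-/- samples, with sums of 193 to 241 and 144 to 233. Of 5 endothelial markers, 4 were at the floor in all 6 samples and PECAM1 reached 41.0 in p21-/- samples, and of 3 leukocyte markers CD163 reached 33.7 in a single p21-/- sample. Over all 770 genes, 33 were at the floor throughout WT and above it throughout p21-/- samples, and 10 were the other way round. The part of the low fibroblast, endothelial and leukocyte marker signals in the results below was not tested. As RNA was taken from whole cultures, fewer expressing cells and less RNA per cell cannot be told apart.

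The p21-/- samples had lower transcript levels of the inhibitors TIMP1 and TIMP2 and of the sheddases ADAM9, ADAM15 and ADAM17, and higher levels of MMP13 and MMP17. Most of the other metalloproteinases were not detected in either line. Of the 21 genes, 11 (52.4%) stayed at the floor in every sample, compared with 167 of 770 panel genes (21.7%), and 7 (33.3%) were above it in every sample, compared with 446 (57.9%). In the limma fit over all 770 genes, 2 members were called higher in p21-/- samples (MMP13 and MMP17) at an adjusted p below 0.05, where 21.8% of all genes were called higher. A further 5 were called lower, where 26.0% of all genes were called lower, and 14 were not called. Among the 446 genes above the floor throughout, 30.3% were called higher and 39.9% lower, and the 7 members there gave 1 higher, 5 lower and 1 without a call. The median log2 fold change, -0.12 both for the 21 members and for all 770 genes, is the value that every gene at the floor throughout takes from the floors themselves, and no change can be read from it. By class, all 3 ADAMTSs and 5 of 7 secreted MMPs were at the floor throughout, in contrast to 1 of 3 membrane MMPs, 2 of 5 ADAMs and none of the inhibitors.

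**Figure D1:**
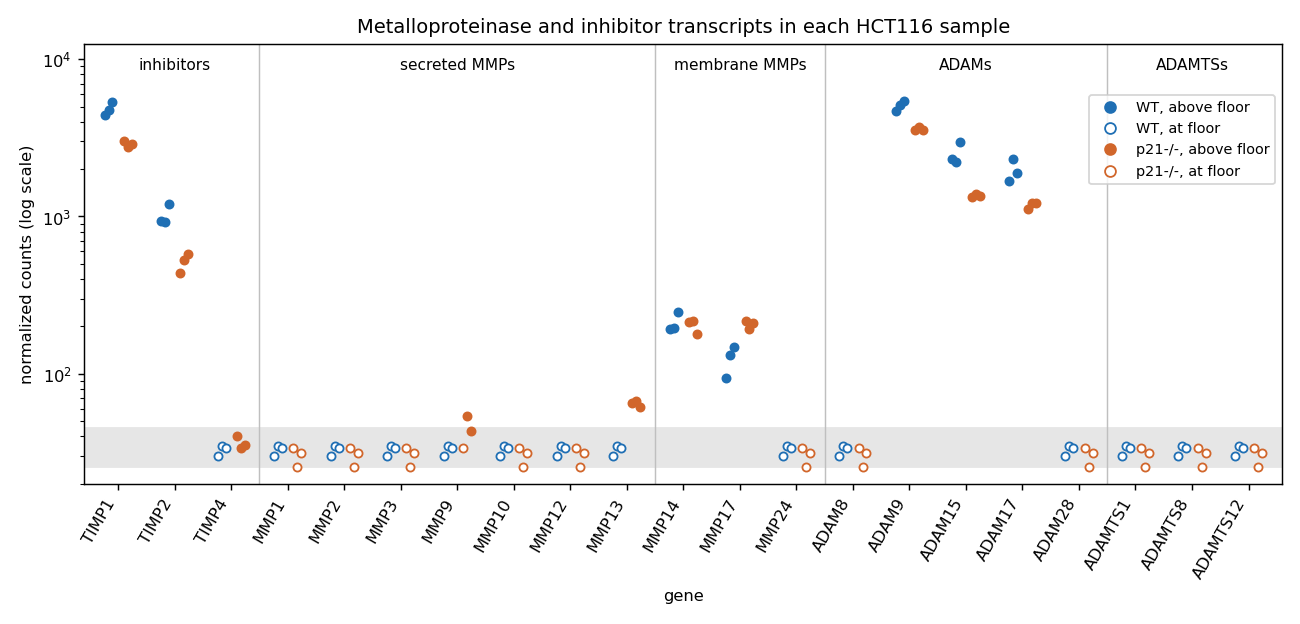
Normalized counts of the 21 genes in each of the 6 samples on a log axis, grouped by class, with filled points above the floor, open points at the floor and a grey band from the lowest floor of a sample, 25.7, to the highest upper limit of a gene at the floor, 44.9. The WT points of TIMP1, TIMP2, ADAM9, ADAM15 and ADAM17 lie above all p21-/- points, MMP17 shows the opposite order, and 11 genes have open points only.

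The promoters of 9 of the 21 genes were found in the RefSeq promoter table (build GRCh38.p14), and the 250 bases before the annotated start were read from it. TIMP2, ADAM9, ADAM28, ADAMTS1, ADAMTS8, MMP1, MMP2, MMP3, MMP9, MMP12, MMP13 and MMP17 had no entry. Shown are TIMP1, ADAM15 and ADAM17, whose transcripts fell, MMP14, which was not called, and MMP10, which was at the floor throughout. Capitals mark matches to the GC box GGGCGG, the core of sites bound by Sp1-type factors, and to the TATA motif TATAAA, on either strand. The windows are chrX:47582186-47582435 (plus strand) for TIMP1, chr1:155051066-155051315 (plus strand) for ADAM15, chr2:9555831-9556080 (minus strand) for ADAM17, chr14:22836335-22836584 (plus strand) for MMP14 and chr11:102780629-102780878 (minus strand) for MMP10, each written 5′ to 3′.
TIMP1: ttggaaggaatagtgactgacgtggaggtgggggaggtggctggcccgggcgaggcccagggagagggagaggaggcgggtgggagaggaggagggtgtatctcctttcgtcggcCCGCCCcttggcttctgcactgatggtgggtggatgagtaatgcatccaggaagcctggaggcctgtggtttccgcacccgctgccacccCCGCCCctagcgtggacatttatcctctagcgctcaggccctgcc
ADAM15: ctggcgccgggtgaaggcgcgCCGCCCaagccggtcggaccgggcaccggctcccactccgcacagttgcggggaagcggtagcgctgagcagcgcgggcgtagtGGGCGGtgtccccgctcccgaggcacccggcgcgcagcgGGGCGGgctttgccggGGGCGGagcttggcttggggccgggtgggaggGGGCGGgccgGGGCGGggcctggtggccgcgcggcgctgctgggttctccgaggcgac
ADAM17: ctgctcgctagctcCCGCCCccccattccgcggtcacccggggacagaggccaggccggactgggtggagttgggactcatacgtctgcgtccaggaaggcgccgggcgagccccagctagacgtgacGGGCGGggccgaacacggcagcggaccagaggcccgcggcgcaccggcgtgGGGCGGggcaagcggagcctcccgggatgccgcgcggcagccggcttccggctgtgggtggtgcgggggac
MMP14: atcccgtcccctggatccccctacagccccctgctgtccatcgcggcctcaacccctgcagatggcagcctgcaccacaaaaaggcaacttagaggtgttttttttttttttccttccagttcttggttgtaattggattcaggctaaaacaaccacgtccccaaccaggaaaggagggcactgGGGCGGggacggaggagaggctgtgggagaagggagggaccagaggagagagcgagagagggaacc
MMP10: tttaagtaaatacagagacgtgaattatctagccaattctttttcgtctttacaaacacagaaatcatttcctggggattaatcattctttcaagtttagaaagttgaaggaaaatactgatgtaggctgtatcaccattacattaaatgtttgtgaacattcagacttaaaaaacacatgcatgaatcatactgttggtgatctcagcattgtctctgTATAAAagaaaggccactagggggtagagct

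The 3 promoters of genes that fell held several GC boxes each, 2 in TIMP1, 6 in ADAM15 and 3 in ADAM17, and MMP14 held 1. ADAM8 and MMP24, at the floor throughout, held 3 each, so several GC boxes were not particular to the genes that fell. MMP10 had no GC box but a TATA motif 31 bases before the start, the usual place of a TATA box. Over the 9 promoters a GC box was found in 8, compared with 42.3% of all 27305 promoters of the table and 61.2% of the 557 panel genes with an entry. The TATA motif was in MMP10 alone among the 9, and in 11.1% of all promoters. The AP-1 motif TGAGTCA was in none of the 9 (4.16% of all promoters), and the E-box CAGGTG, the letters bound by SNAI-type repressors, was in ADAM8 alone, with 2 matches (17.5% of all promoters). Only exact matches were sought, and TIMP1 holds TGAGTAA, which differs from the AP-1 motif in a single letter. For the members without an entry, MMP1, MMP3, MMP9 and MMP13 among them, nothing can be said about these motifs. No match to one motif overlapped a match to another in these 9 promoters, and a match is a description of letters, not of binding. GC content did not separate detected from undetected members. It was 79.6% in ADAM15, 75.6% in ADAM17, 64.8% in TIMP1 and 56.8% in MMP14, all above the floor throughout. Among the members at the floor it was 77.6% in MMP24, 73.6% in ADAM8, 68.4% in ADAMTS12 and 34.4% in MMP10, and TIMP4 was between the 2 states, with 62.8%. Over the panel, the median was 56.8% in 109 genes at the floor throughout and 66.8% in 339 genes above it throughout.

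**Figure D2:**
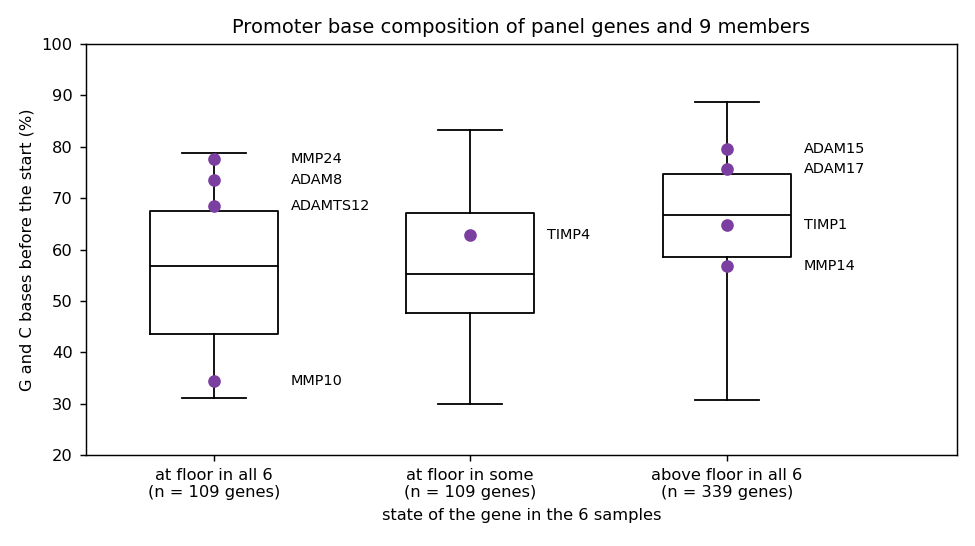
Share of G and C bases in the 250 bases before the start, in percent, for panel genes in the 3 states of detection (boxes give the quartiles and the median, whiskers the full range) with the 9 member promoters as points. The 4 members at the floor throughout spread from 34.4% to 77.6%, and the 4 above it throughout from 56.8% to 79.6%.

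The inhibitors were examined first, as they can act on several of the enzyme classes. TIMP1, which inhibits most secreted MMPs, was at 4427, 4787 and 5314 normalized counts in WT and at 3012, 2750 and 2895 in p21-/- samples. Every p21-/- value was below every WT value. The mean fell from 4842 ± 446 to 2886 ± 131 (SD, n = 3 each), to 59.6% of WT, a log2 fold change on log2(value + 1) of -0.74 (SE 0.0884, limma adjusted p = 2.48e-06). TIMP2, which inhibits MMP14 and also takes part in the activation of proMMP2 at the cell surface, was at 939, 928 and 1199 in WT and at 437, 529 and 574 in p21-/- samples. The groups did not overlap here either, and the mean fell from 1022 ± 153 to 513 ± 70.0, to 50.2% of WT, with a log2 fold change of -0.99 (SE 0.130, limma adjusted p = 7.59e-06). TIMP4, an inhibitor with a narrow tissue range, was at the floor throughout WT and at 39.92, 33.68 and 35.39 in p21-/- samples. These values came from 37, 37 and 40 barcodes, with exact 95% Poisson intervals of 26.1 to 51.0, 26.1 to 51.0 and 28.6 to 54.5 (counting error only), and the highest negative control counts of the same samples were 33, 25 and 31. They lay within the range that a WT sample at the floor could have had, and TIMP4 was not called (limma adjusted p = 0.495).

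Among the secreted MMPs, MMP13 was the only one detected in every sample of a line. MMP13 (collagenase-3) cleaves fibrillar collagens, and it was at the floor in the 3 WT samples and at 64.73, 67.35 and 61.05 in p21-/- samples. The p21-/- values rested on 60, 74 and 69 barcodes, with exact 95% Poisson intervals of 45.8 to 77.2, 58.1 to 92.9 and 53.7 to 87.3, all above the highest negative control of the sample. The rise was at least 1.56-fold, as the mean of the p21-/- values over the mean of the highest levels that the WT samples could have had (geometric means, deposited scaling). The limma adjusted p was 5.91e-05 with WT at its floor values and 0.00221 with the floor at its upper limit. The WT spread behind either p is that of the floors and not of MMP13. MMP9 (gelatinase B) was at the floor throughout WT and in p21-/- replicate 1, and at 53.70 and 43.36 in p21-/- replicates 2 and 3, which rested on 59 and 49 barcodes (exact 95% Poisson intervals 44.9 to 76.1 and 36.3 to 64.8). Replicate 2 alone exceeded the highest level a WT sample at the floor could have had, 44.9, and MMP9 was not called (limma adjusted p = 0.0857), although it was called when p21-/- replicate 1 was left out (limma adjusted p = 0.0123). The collagenase MMP1, the gelatinase MMP2, the stromelysins MMP3 and MMP10 and the macrophage elastase MMP12 were at the floor throughout, so each was below 44.9 normalized counts in every sample and no difference between the lines was detectable. MMP10, MMP1, MMP3, MMP12 and MMP13 follow each other in this order on chromosome 11, and MMP13, at the end of the row, was the member of this cluster with signal in p21-/- samples.

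The membrane MMPs behaved differently from each other. MMP14 (MT1-MMP), a collagenase of the cell surface that activates proMMP2, was at 191, 194 and 247 normalized counts in WT and at 214, 216 and 180 in p21-/- samples. The groups overlapped, with means of 211 ± 31.2 and 203 ± 20.3 (SD, n = 3 each), and MMP14 was not called (log2 fold change -0.05, SE 0.160, limma adjusted p = 0.809). The 95% interval of the change ran from -0.39 to 0.29, and its sign turned under other scalings between samples. MMP17 (MT4-MMP), which is held at the membrane by a lipid anchor, was at 93.42, 131 and 147 in WT and at 218, 194 and 211 in p21-/- samples. All p21-/- values were above all WT values, and the mean rose from 124 ± 27.7 to 208 ± 12.4, a log2 fold change of 0.76 (SE 0.182, limma adjusted p = 0.00210). The lowest value, in WT replicate 1, rested on 62 barcodes, and the change without that sample was 0.57. MMP24 (MT5-MMP), known mainly from the nervous system, was at the floor throughout.

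All 3 detected ADAMs fell. ADAM17 (TACE), the main sheddase of TNF and of EGF receptor ligands such as amphiregulin, was at 1682, 2330 and 1904 normalized counts in WT and at 1120, 1216 and 1218 in p21-/- samples. No p21-/- value reached a WT value, and the mean fell from 1972 ± 329 to 1185 ± 56.2 (SD, n = 3 each), to 60.1% of WT (log2 fold change -0.72, SE 0.111, limma adjusted p = 4.11e-05). ADAM15, whose extracellular part binds integrins, was at 2334, 2235 and 2956 in WT and at 1326, 1383 and 1349 in p21-/- samples. The mean fell from 2509 ± 391 to 1353 ± 29.0, to 53.9% of WT, with a log2 fold change of -0.88 (SE 0.104, limma adjusted p = 2.43e-06). ADAM9, also a membrane sheddase, was at 4688, 5107 and 5430 in WT and at 3573, 3693 and 3559 in p21-/- samples. Its mean fell from 5075 ± 372 to 3608 ± 73.5, to 71.1% of WT, with a log2 fold change of -0.49 (SE 0.0831, limma adjusted p = 0.000106). The WT samples were more spread than the p21-/- samples in all 3 genes, and this was so over the panel. For pairs of replicates, the chi-square per degree of freedom of the barcode counts was 30.6 to 80.6 in WT and 2.06 to 4.95 in p21-/- samples. It was taken over genes above the floor in both samples of a pair. The limma fit uses a common variance for both lines. ADAM8 and ADAM28, known mainly from leukocytes, were at the floor throughout, as were ADAMTS1, ADAMTS8 and ADAMTS12, which cut proteoglycans or other matrix proteins. Each of these 5 genes was thus below 44.9 normalized counts in every sample.

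The scale between samples was then varied, because it shifts all genes together. Before normalization, the barcode counts of TIMP1, TIMP2, ADAM9 and ADAM17 overlapped between the lines, whereas those of ADAM15 and MMP17 did not. Dividing by the median, the trimmed mean of M values and quantile normalization moved the median log2 change of the 446 genes above the floor throughout from -0.05 to 0.16, 0.056 and 0.13, and scaling to 30 housekeeping candidates moved it to -0.43. The table does not mark the housekeeping genes of the panel, and these 30 were matched from a hand-written list of 39 common ones, so they may not be the genes the authors used. Over these scalings and the other alternatives the change ranged from -1.13 to -0.50 for TIMP1, from -1.38 to -0.72 for TIMP2, from -0.88 to -0.28 for ADAM9, from -1.27 to -0.67 for ADAM15 and from -1.11 to -0.51 for ADAM17. All 5 kept their call under each of the 16 alternatives. MMP13 was called under each as well, but its fitted values, 0.57 to 1.16, are set against floors in WT and are not bounds. MMP17 kept its direction, at 0.38 to 1.14, and lost its call under housekeeping scaling (limma adjusted p = 0.0563). MMP14 ranged from -0.43 to 0.30, and was called lower under housekeeping scaling alone (limma adjusted p = 0.0165).

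**Figure D3:**
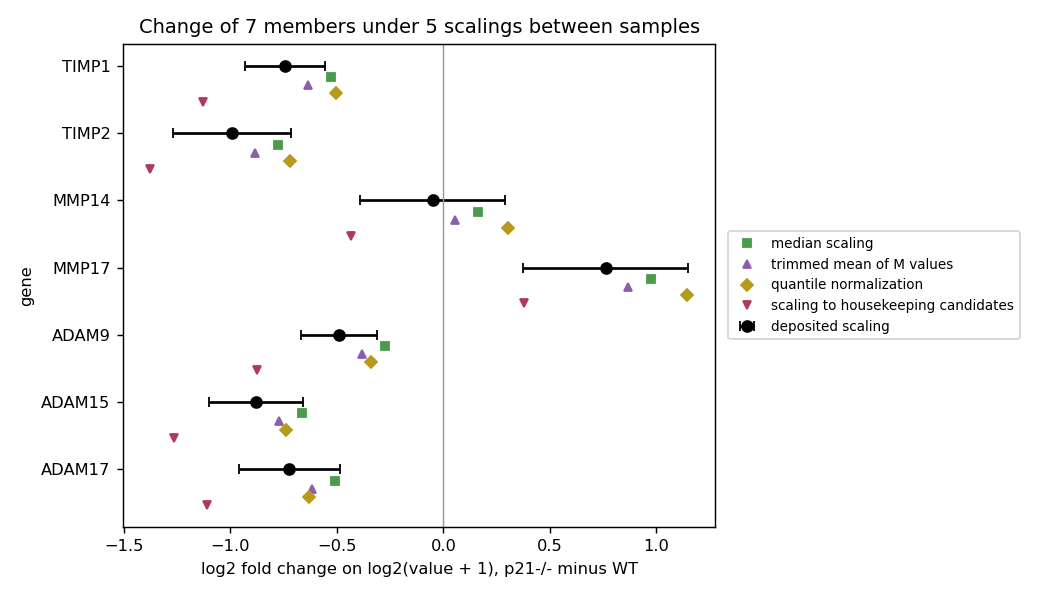
Log2 fold change of p21-/- over WT on log2(value + 1) for the 7 members detected in every sample of both lines, with the 95% limma interval for the deposited scaling (black) and the values under the other 4 scalings (coloured). All marks of TIMP1, TIMP2, ADAM9, ADAM15 and ADAM17 lie left of 0 and all of MMP17 right of it, whereas those of MMP14 fall on both sides.

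Ratios of 2 genes within a sample do not depend on the scale between samples, and 7 of them were compared, chosen after the values were seen. Each ratio holds a gene called lower above, so the ratios are not separate from the single-gene calls. The share of other gene pairs of the panel without overlap was not computed. Their absolute size depends on the probes, so each ratio is compared between lines only. They are ratios of transcripts, and inhibition of an enzyme was not measured. MMP14 over TIMP2 was 0.204, 0.209 and 0.206 in WT and 0.489, 0.408 and 0.313 in p21-/- samples, 1.92-fold higher. The WT samples were nearly equal and all p21-/- samples were above them. MMP14 over TIMP1 was 0.0432, 0.0406 and 0.0464 in WT and 0.0709, 0.0785 and 0.0620 in p21-/- samples, 1.62-fold higher. MMP17 over TIMP1 was 0.0211, 0.0275 and 0.0277 in WT and 0.0723, 0.0705 and 0.0730 in p21-/- samples, 2.85-fold higher. Each p21-/- sample thus had more MMP14 and MMP17 transcript relative to TIMP1 than any WT sample. Within the ADAMs, ADAM15 over ADAM9 was 0.498, 0.438 and 0.545 in WT and 0.371, 0.375 and 0.379 in p21-/- samples, and ADAM17 over ADAM9 went from 0.359, 0.456 and 0.351 to 0.313, 0.329 and 0.342. ADAM9 over TIMP1 was 1.06, 1.07 and 1.02 in WT and 1.19, 1.34 and 1.23 in p21-/- samples, again without overlap. These 6 ratios each had a two-sided exact permutation p of 0.1, the smallest that 3 against 3 samples allow (Benjamini-Hochberg adjusted 0.117 over the 7), so none can pass a threshold of 0.05. TIMP2 over TIMP1 differed by -0.25 on the log2 scale and overlapped (exact permutation p = 0.2).

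**Figure D4:**
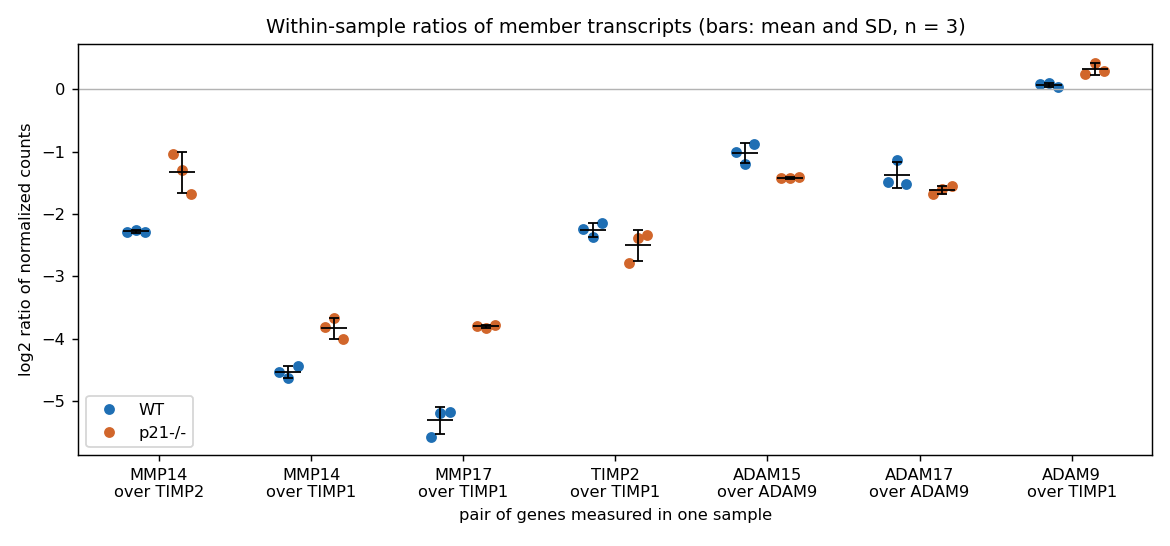
Log2 ratio of normalized counts of 2 genes within each of the 3 WT (blue) and 3 p21-/- samples (orange), with bars for the mean and SD (n = 3). The lines do not overlap for 6 of the 7 ratios, which were chosen after the values were seen. MMP17 over TIMP1 shows the largest difference of the 7, 1.51 on the log2 scale.

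Other genes of the pathway were counted in the same fit, in which 21.8% of all 770 genes were called higher and 26.0% lower (30.3% and 39.9% of those above the floor throughout). The counts of the 4 lists below are descriptions beside these shares, and no list was tested against the panel. Of 10 activators and regulators of metalloproteinases on the panel, 5 rose, 2 fell and 3 were not called. The 3 with the largest change in this list code for matricellular proteins known to raise or modulate MMP production or activity. SPARC went from 38.0 ± 10.0, with 2 WT samples at the floor, to 4537 ± 391, THBS1 from 235 ± 12.3 to 1059 ± 62.0 (log2 fold change 2.17), and TNC from the floor to 145 ± 3.22, at least 3.51-fold higher (SD, n = 3 each). The urokinase gene PLAU, whose product starts the plasmin cascade that activates proMMPs, rose with a log2 fold change of 0.64 (SE 0.154, limma adjusted p = 0.00225). It was picked after its values were seen, and lost its call under quantile normalization (adjusted p = 0.0585) and housekeeping scaling (adjusted p = 0.149), and its change was 0.40 without WT replicate 1. Housekeeping scaling gave 4 higher and 5 lower in this list.

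Of 22 substrates on the panel that ADAMs shed or membrane MMPs cut, 11 fell, 1 rose and 10 were not called, 6 of them at the floor throughout, beside the panel shares of 26.0% lower and 21.8% higher. The median log2 fold change, -0.34, lies midway between the smallest fall called and the value of the genes at the floor, so it partly reflects the floors. CDH1 (E-cadherin) went from 2687 ± 376 to 283 ± 11.5 (log2 fold change -3.23). The EGF receptor ligands AREG and EREG, both released by ADAM17, went from 16940 ± 5859 to 3154 ± 401 (log2 fold change -2.37, SE 0.182, limma adjusted p = 1.59e-08) and from 19905 ± 4170 to 4657 ± 416 (log2 fold change -2.08, SE 0.129, limma adjusted p = 1.09e-09). NOTCH1, picked as the one gene of this list that rose, went from 227 ± 8.34 to 383 ± 24.7 (limma adjusted p = 0.000152). The number of substrates called lower was 8 under quantile normalization and 20 under housekeeping scaling, and the number called higher 1 to 4.

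Of 19 matrix proteins on the panel that MMPs or ADAMTSs cut, 4 rose, 4 fell and 11 were not called, shares near the 21.8% and 26.0% of all genes. The median log2 fold change, -0.02, is that of COL4A1, which was at the floor in 5 of 6 samples, and no change can be read from it. COL1A1, a chain of the fibrillar collagen I, fell from 215 ± 24.2 to 63.8 ± 3.18 (log2 fold change -1.73), and COL18A1 from 1296 ± 233 to 585 ± 67.4 (log2 fold change -1.14). Housekeeping scaling gave 3 higher and 12 lower here. Among 9 transcription factors known to act at MMP promoters, 5 rose, 3 fell and 1 was not called, beside 21.8% higher and 26.0% lower over all genes. SNAI2 went from the floor to 477 ± 86.1, at least 11.5-fold higher, and TWIST1 fell from 92.5 ± 11.8 to 45.5 ± 3.20 (limma adjusted p = 0.000101). JUN, a subunit of AP-1, went from 520 ± 271 to 899 ± 80.6 (log2 fold change 0.96, SE 0.293, limma adjusted p = 0.0122). The JUN value rested on WT replicate 1, without which it was 0.44, and its call was lost under quantile normalization (adjusted p = 0.10), housekeeping scaling (adjusted p = 0.106) and a constant prior variance (adjusted p = 0.0535). Housekeeping scaling gave 2 higher and 4 lower in this list.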

How the data were processed

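RNA of 3 WT and 3 p21-/- HCT116 samples was measured on the nCounter PanCancer Progression Panel. Gene values were used as the deposited signal, barcode counts that the authors normalized in nSolver by positive controls and housekeeping genes. Values at background are set to a floor. The control entries are raw counts per the deposited table. The factor between normalized values and barcode counts was found from values under 500 (tolerance 0.1 count). On log2(value + 1), all 770 genes were fitted in limma 3.58.1 (R 4.3.3) with an intensity trend, no filter, two-sided, and Benjamini-Hochberg adjustment, with a call at an adjusted p below 0.05. The log2(value + 1) scale understates changes of low genes, and the floor can make them smaller or larger. The fit was tested on simulated data with the same SD for all genes and both lines and a common floor. The real data differ in both respects, so that test does not cover unequal spread between lines or floors that differ between samples. Members detected in every sample of a line are given in full if called or at a mean of at least 100, and the up to 3 genes with the largest change in each pathway list are named, less items not reported here. PLAU and NOTCH1 were added after their values were seen. The members and lists were chosen with earlier results of these data known. Alternatives were the pseudocount, the floor, 4 scalings, the prior variance, a replicate block and leaving out each sample. Same-numbered samples did not deviate together (r = 0.0757, -0.0544 and 0.0524) and were not treated as pairs. Gene symbols are as deposited. TIMP3, ADAM10 and MMP7 were not analysed here.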

Additional observations from a re-analysis of the deposited data

How the results depend on the processing

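The number of members called higher was 2, and 4 under median scaling (with MMP9 and TIMP4 added, adjusted p = 0.00587 and 0.0351), 3 under the trimmed mean of M values (MMP9 added), 3 under quantile normalization (TIMP4 added) and 1 under housekeeping scaling (MMP13). The number called lower was 5, and 17 under housekeeping scaling and 16 with the floor at its upper limit, of which 11 in each case were genes at the floor in all 6 samples, whose values then reflect the scaling of the floor alone. Leaving out each sample gave 2 to 3 higher and 5 lower each time. The replicate block gave 2 higher and 5 lower and changed no other call among the members. MMP14 turned sign, to 0.16 under median scaling, 0.056 under the trimmed mean, 0.30 under quantile normalization, 0.068 without WT replicate 3 and 0.036 without p21-/- replicate 3 (range over left-out samples -0.11 to 0.068). Over all genes 168 were called higher and 200 lower (45.7% higher), compared with 251 and 169 (59.8%) under median scaling, 214 and 155 (58.0%) under quantile normalization, 97 and 529 (15.5%) under housekeeping scaling and 168 and 392 (30.0%) with the floor at its upper limit. Signal near the floor limits the members without a call other than MMP14.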
